A study of Strongylocentrotus intermedius with 6 samples.

Results

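The NLRC-type NOD-like receptors of the sea urchin Strongylocentrotus intermedius were taken as every coding gene model whose description, in the authors' annotation, names an NLR family CARD domain-containing protein or a protein NLRC. This gave 55 members among 22969 coding models and 30559 gene models in all. Of the members, 30 were annotated as NLRC4, 24 as NLRC5 and 1 as NLRC3. The tissue label is coelomocyte, meaning the cells that circulate in the body cavity and carry out immune defence, and 3 libraries of their RNA are labelled ZT12 and 3 ZT0, all with the treatment label LD. ZT is by convention zeitgeber time, the hours since lights-on, and LD a cycle of light and dark. Neither the labels nor the files state the strain, age or sex of the animals, the light schedule, or whether a library is 1 animal or a pool. All p-values therefore measure only the spread between these libraries, which may be partly technical. Total counts were 20229918 to 24368884 in ZT12 libraries and 21610460 to 22478512 in ZT0 libraries.

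NOD-like receptors are proteins of the cytosol that sense microbial products and cell damage. A central nucleotide-binding NACHT domain lets them assemble into larger complexes, and leucine-rich repeats at one end commonly take part in sensing. The NLRC branch is named for the caspase recruitment domain (CARD), which in NLRC4 passes the signal to caspases. In mammals, NLRC4 forms an inflammasome when NAIP proteins bind bacterial flagellin or parts of secretion needles, NLRC5 enters the nucleus and activates MHC class I genes, and NLRC3 dampens signalling through TRAF6 and STING. Sea urchins are known for a greatly enlarged NOD-like receptor family, so a mammalian name here marks the closest annotated relative and not a shown function. Reads could have been divided among near-identical copies in such a family; this was not analysed, and the values of single members are uncertain to that extent.

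Most members reached 1 CPM in some library, but fewer did so in every library. Levels are in CPM, counts scaled to a common library total after TMM (trimmed-mean) correction, and 1 CPM stood for 19.8 to 24.4 reads. At least 1 library reached 1 CPM for 44 of the 55 members (80%), against 69.3% of all coding models. All 6 libraries reached it for 15 members (27.3%), against 50.2% of all coding models, and 29 members (52.7%) reached it in some libraries and not in others, against 19.1%. Members and coding models were not matched for level. Among those with enough reads to be tested, the median was 2.71 CPM for members and 10.6 CPM for coding models. The remaining 11 members stayed under 1 CPM throughout, and every member had at least 1 read in some library. By annotated kind, 23 of 30 NLRC4 members and 21 of 24 NLRC5 members reached 1 CPM somewhere, and 8 and 7 did so in all 6 libraries.

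**Figure D1:**
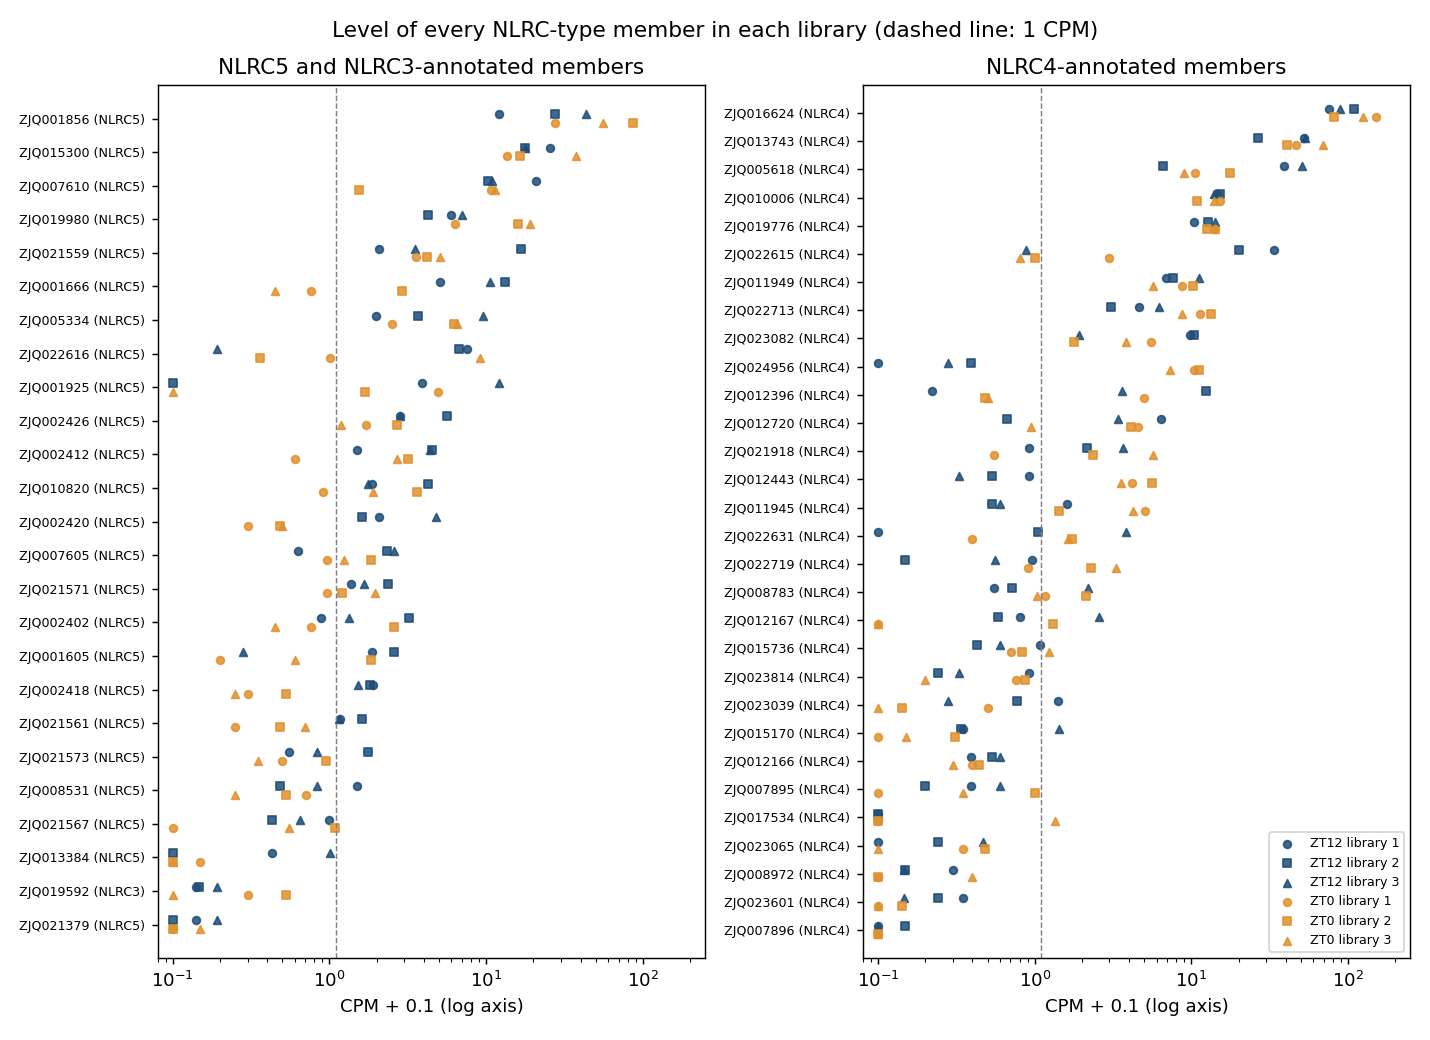
Level of each of the 55 members in each of the 6 libraries (CPM + 0.1, log axis; ZT12 in blue, ZT0 in orange, marker shape for the library number), ordered by mean level within NLRC5 with NLRC3 (left) and NLRC4 (right). The dashed line marks 1 CPM; 15 members lie to its right in all 6 libraries and 11 to its left in all 6.

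A comparison between genes needs levels per length, for which the authors' FPKM values serve (fragments per kilobase of gene model, scaled to the counted total of the library). The median member averaged 0.569 FPKM over the 6 libraries, against 1.42 FPKM for the median coding model. The most abundant member was an nlrc4 gene, ZJQ016624, at 19.9 ± 3.88 FPKM at ZT12 and 23.5 ± 5.6 FPKM at ZT0 (SD, n = 3 each). In CPM it had 75.93, 108.79 and 88.60 in ZT12 libraries 1, 2 and 3, against 150.51, 81.16 and 124.30 in ZT0 libraries 1, 2 and 3. Its groups overlapped, with ZT0 library 2 below ZT12 libraries 2 and 3, and it did not pass the test between times (log2 fold change, ZT12 minus ZT0, -0.38, SE 0.26, edgeR adjusted p = 0.808).

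Next in order stood the nlrc5 gene ZJQ001856, at 6.12 ± 3.65 FPKM at ZT12 and 11.6 ± 6.9 FPKM at ZT0, and the nlrc4 gene ZJQ013743, at 7.77 ± 2.7 FPKM at ZT12 and 8.42 ± 2.11 FPKM at ZT0 (SD, n = 3 each). The NLRC5 gene ZJQ015300 followed with 6.09 ± 1.17 FPKM at ZT12 and 6.19 ± 3.33 FPKM at ZT0, then ZJQ019980 (nlrc5) with 2.96 ± 0.799 FPKM at ZT12 and 6.65 ± 3.29 FPKM at ZT0. ZJQ005334 (nlrc5) was sixth, with 4.91 ± 4.06 FPKM at ZT12 and 4.53 ± 2.13 FPKM at ZT0. Neighbours in this order overlapped in their levels, the first and second included. ZJQ016624, at 15.9 to 28.9 FPKM, was above ZJQ001856 in 5 of the 6 libraries but not in ZT0 library 2, where it had 17.69 FPKM and ZJQ001856 18.97 FPKM. These 6 genes held 47.6 to 71.7% of the summed CPM of the 55 members in a library. None of the 6 was called by edgeR, with adjusted p from 0.592 to 0.995.

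The only member annotated NLRC3, ZJQ019592, was close to undetected. It had 1, 1 and 2 reads in ZT12 libraries 1, 2 and 3, and 4, 10 and 0 reads in ZT0 libraries 1, 2 and 3. At no more than 0.43 CPM it failed the filter on low counts and was not tested.

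Summed over all members, the transcript level differed by less than the spread between libraries. The sum was 376 ± 22.7 CPM in ZT12 libraries, against 396 ± 33.1 CPM in ZT0 libraries (SD, n = 3 each). NLRC4 members summed to 261.8, 230.6 and 263.6 CPM in ZT12 libraries 1, 2 and 3, against 298.2, 223.2 and 279.4 CPM in ZT0 libraries 1, 2 and 3. NLRC5 members summed to 102.2, 130.5 and 138.0 CPM in the ZT12 libraries and to 76.95, 154.6 and 154.7 CPM in the ZT0 libraries. Both sums overlapped between the times.

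The number of NLRC5 members above 1 CPM separated the times, while the sums did not. NLRC5 members at 1 CPM or more numbered 18, 19 and 17 in ZT12 libraries 1, 2 and 3, against 8, 15 and 12 in ZT0 libraries 1, 2 and 3, so that every ZT12 library had more than any ZT0 library. For NLRC4 the order was the other way and the groups met, with 12, 11 and 15 members in the ZT12 libraries and 15, 17 and 16 in the ZT0 libraries. Over all coding models 13430, 13794 and 13868 reached 1 CPM in the ZT12 libraries and 13146, 13586 and 13214 in the ZT0 libraries, with overlap. At 0.5 CPM the NLRC5 numbers still separated (21, 19 and 21 in ZT12 libraries, 16, 17 and 13 in ZT0 libraries). At 2 CPM they overlapped (8, 15 and 12 in ZT12 libraries, 7, 10 and 8 in ZT0 libraries). No test was made of these numbers or of the difference between NLRC4 and NLRC5.

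**Figure D2:**
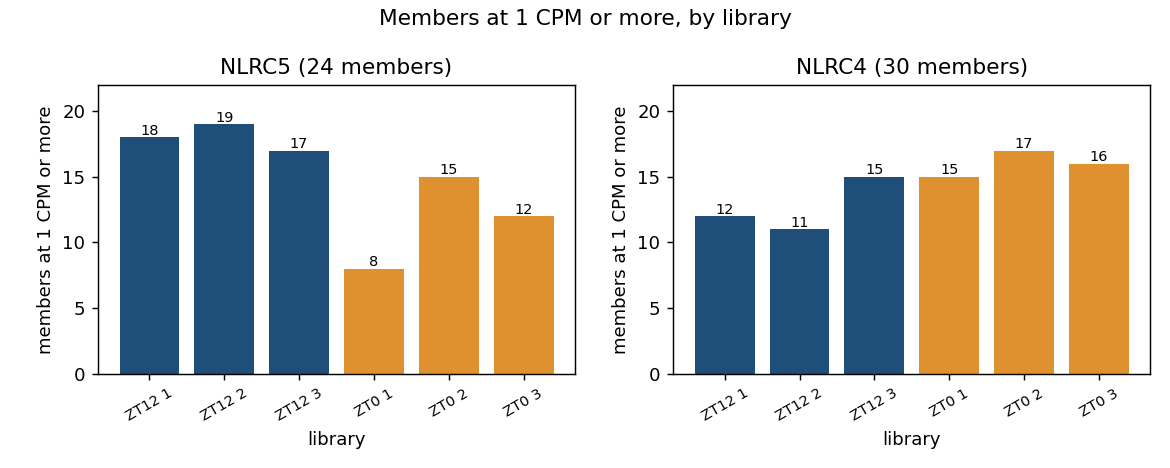
Number of members at 1 CPM or more (bars) in each library, for the 24 NLRC5 members (left) and the 30 NLRC4 members (right), ZT12 in blue and ZT0 in orange. NLRC5 shows 17 to 19 members at ZT12 and 8 to 15 at ZT0; NLRC4 shows 11 to 15 at ZT12 and 15 to 17 at ZT0.

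Between the times, 1 NLRC-type member passed the test, an nlrc4 gene that was almost silent at ZT12. Of the 55 members, 43 passed the filter on low counts and were tested by quasi-likelihood in edgeR, with Benjamini-Hochberg adjustment across 18456 genes and a threshold of 0.05. The call rate over all genes was 0.13% (24 genes), 0.0163% for higher and 0.114% for lower at ZT12. Among members 0 were called higher and 1 lower. DESeq2, run over 29286 genes of which 0.901% were called, called 3 members higher and 2 lower, among them the one called by edgeR. It gave no adjusted p to 8 members, and the 0.901% counts all such genes as not called. Limma-trend on log2(FPKM + 1) called 0. At an unadjusted p under 0.05 stood 11 members, 5 higher and 6 lower, against 7.31% of all genes tested (3.44% higher and 3.87% lower). Some members passed the filter only through the time at which they were high, so these shares describe the tested members and not the family.

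The called gene, ZJQ024956 (nlrc4), had 0, 6 and 4 reads in ZT12 libraries 1, 2 and 3, against 204, 261 and 145 reads in ZT0 libraries 1, 2 and 3. In CPM these were 0, 0.29 and 0.18 at ZT12, and 10.30, 11.15 and 7.21 at ZT0. The groups lay far apart, with every ZT12 library under 0.3 CPM and every ZT0 library above 7 CPM. The gene passed the filter on low counts only through the ZT0 libraries, where it was high. It was 61.9-fold lower at ZT12 (log2 fold change -5.95, SE 0.66, edgeR adjusted p = 0.00587). The ZT12 values lay near the 0.123 to 0.143 CPM that 0 reads allow (3 counts, counting error only). The size of the fold is therefore uncertain. Limma-trend gave a log2 fold change of -1.81 on log2(FPKM + 1) and -4.26 on log2(FPKM + 0.1). Without ZT12 library 1 or ZT12 library 3 the gene was at -5.31 and -6.12 and not called (edgeR adjusted p = 0.0602 and 0.0843), in fits that called no gene at all. Each of the other 4 libraries could be left out with the call kept (edgeR adjusted p from 0.0143 to 0.0401). It was also not called with edgeR's legacy option (adjusted p = 0.178) or by limma-trend on log2(FPKM + 1) (adjusted p = 0.0542), but was by DESeq2 (adjusted p = 5.47e-14). In bulk RNA, fewer cells of a type and less RNA per cell cannot be told apart.

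A model with the preceding identifier number, ZJQ024955, was also nearly silent at ZT12; it carries no symbol and was chosen after its values were seen. It had 0, 2 and 1 reads in ZT12 libraries 1, 2 and 3, against 111, 109 and 102 reads in ZT0 libraries 1, 2 and 3 (edgeR adjusted p = 0.0232, and 0.0698 to 0.153 with any 1 library left out). ZJQ024955 also passed the filter on low counts only through the ZT0 libraries. Whether both models count reads of the same transcript was not tested. Markers of the skeleton-forming cells also moved with time: of 17 listed genes 10 were tested and 5 called lower, none was called higher (1 was higher at an unadjusted p under 0.05), 1 had no read in any library, and the list summed to 90.4 to 182 CPM at ZT12 and 361 to 728 CPM at ZT0. Their part in the difference of ZJQ024956 was not tested.

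**Figure D3:**
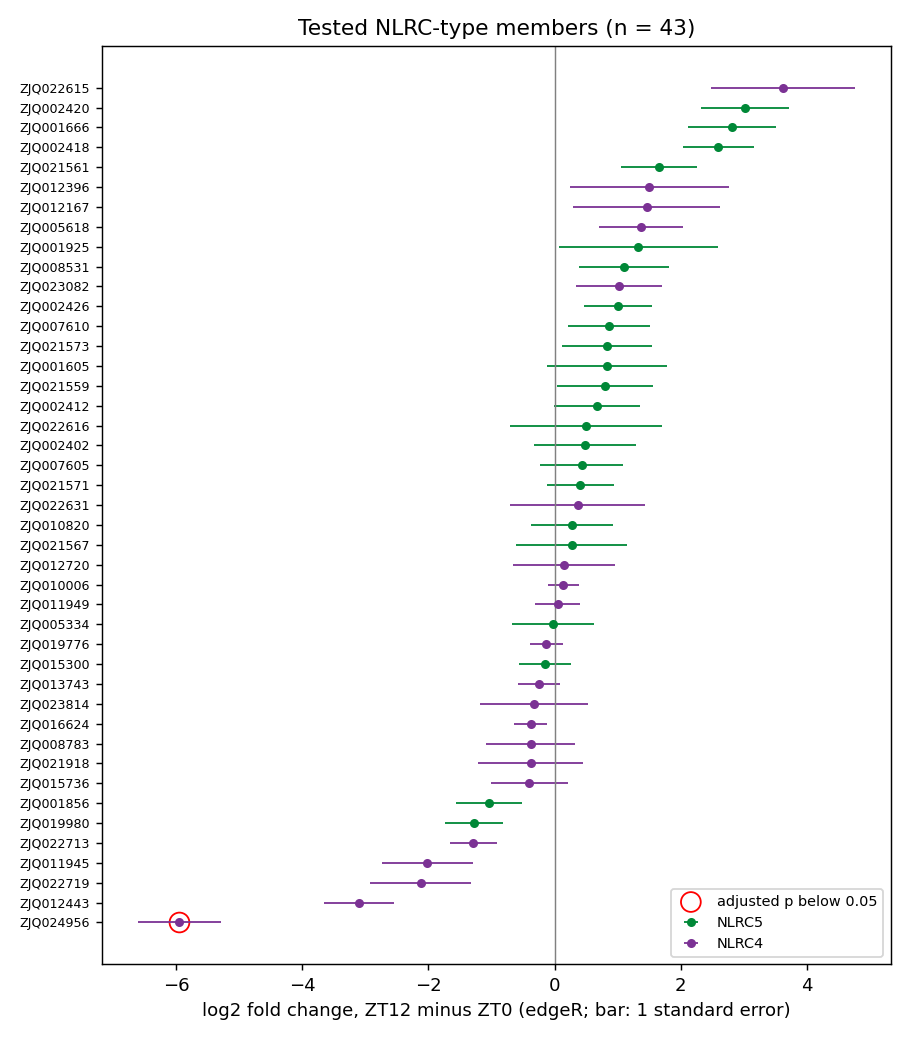
Log2 fold change (ZT12 minus ZT0) of the 43 tested members in edgeR, NLRC5 in green and NLRC4 in purple. Bars show 1 standard error, derived from the fold change and its F statistic. The red ring marks an adjusted p below 0.05. ZJQ024956 at -5.95 is the only ringed member; 18 of 22 NLRC5 members and 9 of 21 NLRC4 members lie right of 0.

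Among NLRC5 members most fold changes pointed to ZT12. Of the 22 tested, 18 lay above 0 and 4 below, with a median log2 fold change of 0.73, and of the 21 tested NLRC4 members 9 lay above and 12 below, with a median of -0.25. Over all genes tested 50.1% lay above 0 and the median was 0.00. The NLRC5 members above 0 include all 5 of each run of close identifier numbers, ZJQ002402 to ZJQ002426 and ZJQ021559 to ZJQ021573. Members of a run may share reads, and some passed the filter only through the ZT12 libraries. The members are therefore not independent counts. With plain library sizes the median of all genes moved to 0.12, that of NLRC5 to 0.85 (19 above 0) and that of NLRC4 to -0.11. The NLRC5 median was 0.24 without ZT12 library 2 and to 0.28 without ZT0 library 1, and was 1.12 without ZT0 library 2. The NLRC4 median stayed between -0.28 (without ZT12 library 3, 7 members above 0) and 0.00 (without ZT0 library 2, 11 members above 0). None of the NLRC5 members was called by edgeR.

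The NLRC5 members with the smallest p were mostly low in transcript, and their libraries did not overlap between the times, which a choice by p favours. ZJQ002418 and ZJQ002420 passed the filter on low counts only through the ZT12 libraries, where they were high. ZJQ002418 had 1.80, 1.71 and 1.42 CPM in ZT12 libraries 1, 2 and 3, against 0.20, 0.43 and 0.15 CPM in ZT0 libraries 1, 2 and 3. All ZT12 libraries lay above the ZT0 libraries, with 31 to 44 reads against 3 to 10 (log2 fold change 2.60, SE 0.57, edgeR adjusted p = 0.218). ZJQ002420 had 1.96, 1.52 and 4.71 CPM in ZT12 libraries and 0.20, 0.38 and 0.40 in ZT0 libraries, again with no overlap (3.02, SE 0.70, edgeR adjusted p = 0.27). ZJQ001666 was more abundant, with 4.95, 13.11 and 10.42 CPM in ZT12 libraries and 0.66, 2.82 and 0.35 in ZT0 libraries. Its lowest ZT12 library was above its highest ZT0 library (2.82, SE 0.70, edgeR adjusted p = 0.331). DESeq2 called ZJQ002420 (adjusted p = 0.0119) and ZJQ001666 (adjusted p = 0.0195) but not ZJQ002418 (0.0625). ZJQ021561 had 1.06, 1.52 and 1.05 CPM in ZT12 libraries and 0.15, 0.38 and 0.60 in ZT0 libraries, without overlap (1.66, SE 0.60, edgeR adjusted p = 0.591).

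A single NLRC5 member with an unadjusted p under 0.05 went the other way. ZJQ019980 had 5.85, 4.13 and 6.95 CPM in ZT12 libraries 1, 2 and 3, against 6.21, 15.89 and 18.99 CPM in ZT0 libraries 1, 2 and 3. The times overlapped through ZT0 library 1 (log2 fold change -1.28, SE 0.46, edgeR adjusted p = 0.592). ZJQ001856, the most abundant NLRC5 gene, leaned the same way, with 11.99, 27.27 and 43.27 CPM in ZT12 libraries and 27.26, 86.29 and 55.17 in ZT0 libraries, and overlapped as well (-1.04, SE 0.53, edgeR adjusted p = 0.727).

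Of the NLRC4 members with an unadjusted p under 0.05, 5 were lower and 1 was higher at ZT12, and ZJQ024956 alone was called. ZJQ012443 had 0.82, 0.43 and 0.23 CPM in ZT12 libraries 1, 2 and 3, against 4.09, 5.47 and 3.43 CPM in ZT0 libraries 1, 2 and 3. Each ZT12 library was under each ZT0 library (log2 fold change -3.10, SE 0.56, edgeR adjusted p = 0.151), and DESeq2 called the gene (adjusted p = 0.000332). ZJQ022713 also separated by time, with 4.50, 2.95 and 6.08 CPM in ZT12 libraries and 11.26, 13.20 and 8.65 in ZT0 libraries (-1.29, SE 0.37, edgeR adjusted p = 0.468). ZJQ011945 had 1.51, 0.43 and 0.50 CPM in ZT12 libraries and 4.95, 1.32 and 4.13 in ZT0 libraries, overlapping through ZT0 library 2 (-2.02, edgeR adjusted p = 0.591). ZJQ022719 had 0.86, 0.048 and 0.46 CPM in ZT12 libraries and 0.81, 2.18 and 3.18 in ZT0 libraries, overlapping through ZT0 library 1 (-2.12, edgeR adjusted p = 0.617).

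The NLRC4 member on the higher side, ZJQ022615, was high in 2 of the 3 ZT12 libraries. It had 33.30, 20.10 and 0.78 CPM in ZT12 libraries 1, 2 and 3, against 2.88, 0.90 and 0.70 CPM in ZT0 libraries 1, 2 and 3. ZT12 library 3 lay within the ZT0 range (log2 fold change 3.62, SE 1.14, edgeR adjusted p = 0.52), and DESeq2 called the gene (adjusted p = 0.0259). The identifiers beside it belong to further NOD-like receptors. ZJQ022614, an nlrp1 gene that is no member, had 74.46, 21.71 and 29.79 CPM in ZT12 libraries 1, 2 and 3 and 0.76, 0 and 0.15 CPM in ZT0 libraries 1, 2 and 3; it was chosen after its values were seen, and edgeR called it higher (adjusted p = 0.0145, and 0.0338 to 0.156 with 1 library left out). ZJQ022616, an Nlrc5 member, had 7.41, 6.56 and 0.091 CPM in ZT12 libraries and 0.91, 0.26 and 9.05 in ZT0 libraries. Both members were thus low in ZT12 library 3, where ZJQ022614 was not, and ZT0 library 3 was high for ZJQ022616 alone.

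**Figure D4:**
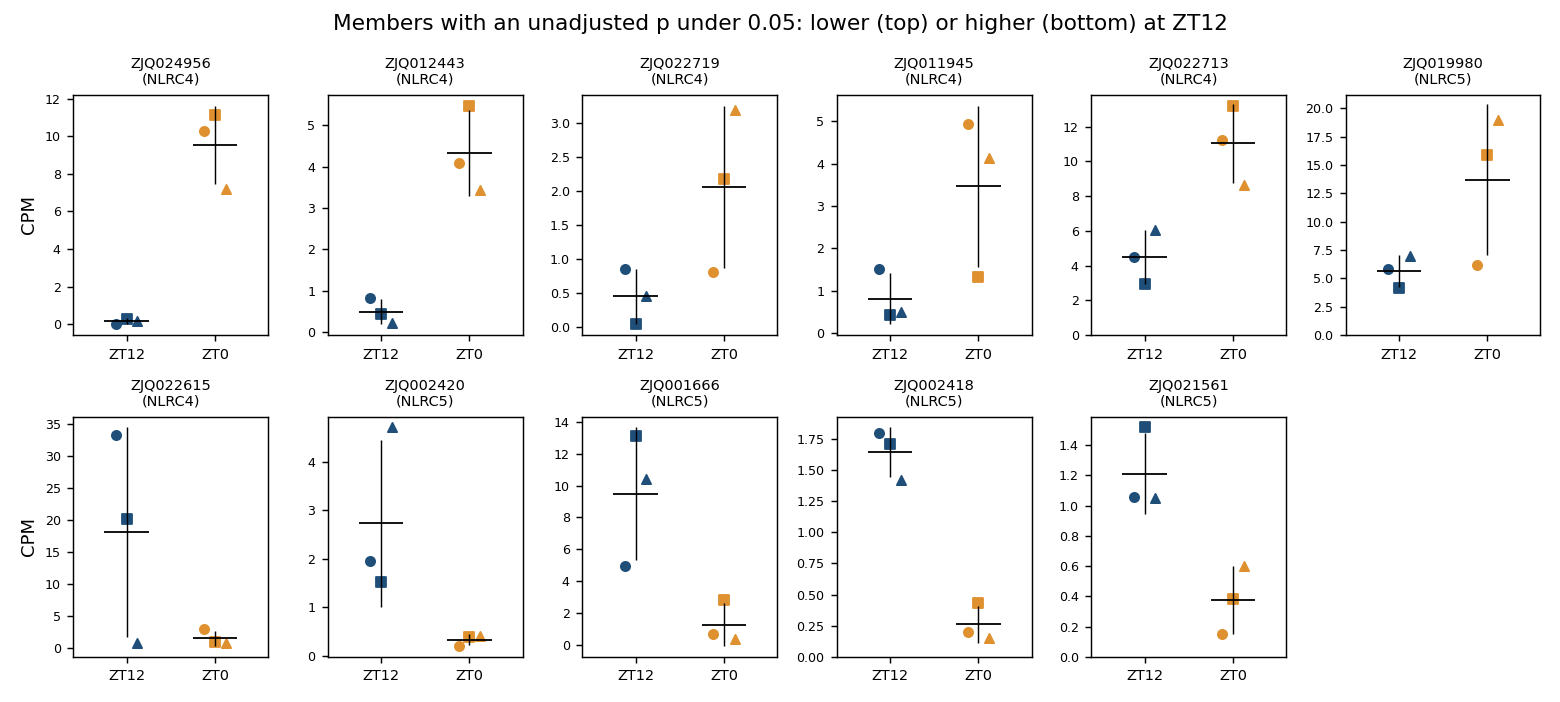
CPM of the 11 members with an unadjusted p under 0.05, lower at ZT12 in the top row and higher in the bottom row (points: the 3 libraries of a time, circle, square and triangle for libraries 1, 2 and 3; horizontal line: mean; vertical line: SD; linear axis per gene). The groups do not overlap in 3 of the 6 lower members and in 4 of the 5 higher ones. A choice by p favours groups that do not overlap, and 12.2% of all genes tested do not.

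Over all 43 tested members the libraries of the times did not overlap for 8, namely 5 NLRC5 members with every ZT12 library above and 3 NLRC4 members with every ZT12 library below. That is 18.6%, against 12.2% of all genes tested (5.84% above and 6.33% below). The 7 members described above as separate were joined by ZJQ002426, an nlrc5 gene chosen after its values were seen, with 2.70, 5.56 and 2.70 CPM in ZT12 libraries and 1.62, 2.61 and 1.09 in ZT0 libraries (log2 fold change 1.01, edgeR adjusted p = 0.735).

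Members often had identifier numbers close to each other, and 22 of the 55 fell into 8 runs with steps of at most 10 between them. Genome positions are not analysed here, and no source used here says whether the numbers follow the genome. The longest runs held 5 NLRC5 members each, ZJQ002402 to ZJQ002426 and ZJQ021559 to ZJQ021573. All 5 tested members of each run had a log2 fold change above 0. ZJQ002418, ZJQ002420 and ZJQ002426 of the first run and ZJQ021561 of the second are the ones that separated by time, and the other 6 members overlapped. Members of a run may share reads, so they are not independent counts.

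Libraries of the same time differed widely in many members. Among tested genes averaging at least 5 CPM, the highest library of a time was on median 3.02 times the lowest for the 15 such members, taking the time with the larger ratio and adding 0.1 CPM to each value, and 1.79 times for all 11314 such genes. The ratio was over 4 for 6 of the 15 members (40%), against 10.4% of all such genes. Whether members differ from other genes of the same level in this ratio was not tested.

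**Figure D5:**
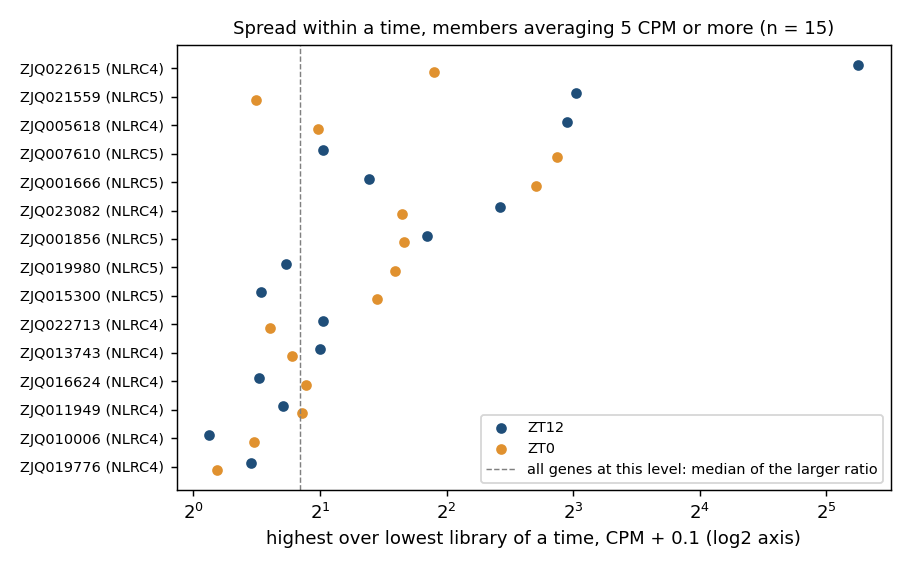
Highest over lowest library within ZT12 (blue) and within ZT0 (orange) for the 15 tested members averaging 5 CPM or more (CPM + 0.1, log2 axis). The dashed line is the median of the larger of the 2 ratios (1.79) over all 11314 tested genes averaging 5 CPM or more. These genes have no upper limit on level and are not matched to the members. ZJQ022615 reaches 38.1 within ZT12, while ZJQ010006 and ZJQ019776 stay under 1.4 in both times.

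The steadiest and the most variable of these members were both NLRC4 genes. ZJQ019776 had 10.27, 12.59 and 14.12 CPM in ZT12 libraries 1, 2 and 3, against 14.14, 12.39 and 13.97 CPM in ZT0 libraries 1, 2 and 3, with ratios of 1.37 within ZT12 and 1.14 within ZT0. ZJQ010006 had 14.56, 15.06 and 13.85 CPM in ZT12 libraries and 15.05, 10.76 and 13.82 in ZT0 libraries. Both overlapped between the times. At the other end, ZJQ022615 differed 38.1 times within ZT12, ZJQ021559 8.13 times within ZT12 and ZJQ005618 7.74 times within ZT12, and the nlrc5 gene ZJQ007610 differed 7.33 times within ZT0. Except for ZJQ022615, these were chosen after their values were seen. The library that stood out was not the same, being ZT12 library 3 (low) for ZJQ022615, ZT12 library 2 (high) for ZJQ021559, ZT12 library 2 (low) for ZJQ005618 and ZT0 library 2 (low) for ZJQ007610.

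In 5 members (9.09%), against 6.67% of all coding models, a time held both a library under 0.1 CPM and a library at 1 CPM or more. ZJQ001925 (nlrc5) was the clearest, with 93, 0 and 263 reads in ZT12 libraries 1, 2 and 3, against 95, 37 and 0 reads in ZT0 libraries 1, 2 and 3. It was thus without reads in 1 library of each time, where 0 reads allow up to 0.143 CPM in ZT12 library 2 and 0.149 CPM in ZT0 library 3 (3 counts, counting error only), and had up to 12.02 CPM elsewhere. ZJQ022631 (nlrc4) had 0, 20 and 81 reads at ZT12 and 6, 38 and 31 at ZT0. ZJQ012167 (nlrc4) had 17, 10 and 54 reads at ZT12 and 0, 28 and 0 at ZT0. ZJQ017534 (nlrc4) was found in ZT0 library 3 alone, with 25 reads, and had 0 reads in each of the other 5 libraries. ZJQ022616, described above, was the fifth. None of the tested ones was called between times, with edgeR adjusted p from 0.835 to 0.963.

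A list of NOD-like receptor partners and of related caspase, apoptosis and NF-kB genes had none called between the times by edgeR, and 1 by DESeq2. Not every gene on it, such as apaf1 or Birc5, is a known partner of these receptors. The list held 56 coding models by symbol, of which 46 were tested, 26 with a fold change above 0 and 20 below, with a median log2 fold change of 0.13. In edgeR 2 had an unadjusted p under 0.05, both higher at ZT12, and limma-trend on log2(FPKM + 1) called 0. Of all genes tested, 7.31% had such a p in edgeR and 0.13% were called by it. Among kinases, TBK1 (ZJQ004344), which phosphorylates interferon regulatory factors, averaged 292 ± 42.9 CPM in ZT12 libraries, against 266 ± 64.7 CPM in ZT0 libraries (SD, n = 3 each), and MAP3K7 (ZJQ017340), the TAK1 kinase upstream of NF-kB, averaged 73.3 ± 3.7 CPM in ZT12 libraries, against 80.9 ± 16 CPM in ZT0 libraries. Ripk1 (ZJQ017143), an adapter kinase, averaged 26.7 ± 14.8 CPM in ZT12 libraries, against 27.8 ± 8.39 CPM in ZT0 libraries. NFKB1 (ZJQ000551), an NF-kB precursor, averaged 420 ± 45.5 CPM in ZT12 libraries, against 455 ± 53.3 CPM in ZT0 libraries. The log2 fold changes of these 4 genes lay between -0.14 and 0.13, with edgeR adjusted p from 0.919 to 0.990.

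The most abundant chaperone, effector and brake genes of the list likewise overlapped between times. The HSP90 gene hsp90ab1 (ZJQ001125), a chaperone of NOD-like receptors, averaged 560 ± 91.1 CPM in ZT12 libraries, against 535 ± 63.2 CPM in ZT0 libraries (SD, n = 3 each). GSDME (ZJQ019093), a gasdermin that forms membrane pores after caspase cleavage, averaged 66 ± 15.2 CPM in ZT12 libraries, against 67.2 ± 11.2 CPM in ZT0 libraries. Tnfaip3 (ZJQ023334), a ubiquitin-editing brake on NF-kB, averaged 123 ± 14.5 CPM in ZT12 libraries, against 118 ± 11.4 CPM in ZT0 libraries. These 3 genes had log2 fold changes between -0.03 and 0.07 (edgeR adjusted p from 0.963 to 0.990).

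The smallest p in the list belonged to genes of inhibitor of apoptosis proteins, which in mammals bind caspases and act as ubiquitin ligases in NOD signalling. Xiap (ZJQ023496) was low, with 40, 35 and 14 reads in ZT12 libraries 1, 2 and 3, against 1 read in each ZT0 library, or 0.64 to 1.66 CPM at ZT12. All ZT12 libraries lay above (edgeR adjusted p = 0.18), and it is the gene DESeq2 called (adjusted p = 0.0117). Xiap passed the filter on low counts only through the ZT12 libraries, where it was high. BIRC2 (ZJQ022792) averaged 22.4 ± 4.47 CPM in ZT12 libraries, against 12 ± 4.17 CPM in ZT0 libraries, without overlap (0.89, SE 0.33, edgeR adjusted p = 0.613). A second BIRC2 gene (ZJQ022789) averaged 41.5 ± 8.03 CPM in ZT12 libraries, against 58.3 ± 11.9 CPM in ZT0 libraries, with overlap (-0.49, edgeR adjusted p = 0.717). A pair of genes annotated apaf1, the apoptosome scaffold, separated in opposite directions, neither of them called. ZJQ000070 averaged 42.2 ± 5.15 CPM in ZT12 libraries, against 58.5 ± 8.68 CPM in ZT0 libraries (-0.47, edgeR adjusted p = 0.687). ZJQ012783 averaged 45.9 ± 8.79 CPM in ZT12 libraries, against 32.8 ± 2.82 CPM in ZT0 libraries (0.48, edgeR adjusted p = 0.703). NFKB1 (ZJQ010390), another model of the factor, averaged 2.45 ± 0.218 CPM in ZT12 libraries, against 1.14 ± 0.794 CPM in ZT0 libraries (1.09, edgeR adjusted p = 0.742).

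Some partner genes were also present in some libraries only, and 6 of the 56 held both a library under 0.1 CPM and one at 1 CPM or more within a time. Of all coding models 6.67% did so, and whether partner genes differ from them was not tested. Both examples here were chosen after their values were seen. A Traf6 gene (ZJQ021412), of the ubiquitin ligase family that relays signals to NF-kB, had 0, 62.47 and 0.046 CPM in ZT12 libraries 1, 2 and 3, and 0, 0 and 0.050 CPM in ZT0 libraries 1, 2 and 3. A CASP2 gene (ZJQ022678), an initiator caspase, had 97.13, 0.048 and 29.34 CPM in ZT12 libraries and 22.67, 36.82 and 0.25 in ZT0 libraries. The Traf6 gene thus had more than 1 read in 1 library alone, and the CASP2 gene was missing or nearly so from 1 library of each time.

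Markers of the labelled cell type were present. Of 174 listed coelomocyte genes (cytoskeletal actin, scavenger receptor cysteine-rich genes, echinoidin, complement C3, polyketide synthase, major yolk protein and melanotransferrin among them), 91 had reads in all 6 libraries, 13 had none, and the list summed to 41800 to 45700 CPM at ZT12 and 51000 to 54900 CPM at ZT0. Of 66 gut markers 31 were tested and 0 called by edgeR, 12 were higher and 1 lower at an unadjusted p under 0.05, their median log2 fold change was 1.56, 4 had no reads, and they summed to 3680 to 4000 CPM at ZT12 and 3610 to 4810 CPM at ZT0. Sums of muscle, nerve, germline and ciliated cell markers overlapped between the times. The coelomocyte sum was lower in every ZT12 library than in any ZT0 library, but most single genes of that list did not lie on the lower side. Of its 91 tested genes 59 had a log2 fold change above 0 and 32 below, with a median of 0.14. At an unadjusted p under 0.05, 8 were higher and 4 lower at ZT12, and 0 were called by edgeR. The part of these lists in the differences of NLRC members was not tested.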

How the data were processed

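RNA-seq of coelomocytes was available as 6 libraries (3 ZT12, 3 ZT0). Read counts per gene model were made by the authors with fastp, HISAT2 and HTSeq, per the submitters' processing notes; versions, genome build, annotation and strand setting are not stated there. The FPKM values were computed by the authors, as deposited. Model lengths were derived from the count and FPKM of each gene in its library with the most reads. With these lengths, 109307 values with 10 reads or more were recomputed from counts, and 100% came within 1%. This checks the scaling between libraries only, and not the lengths or the levels between genes. FPKM served for levels between genes, and for an alternative test.

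Counts were tested over all gene models with edgeR 4.0.16 (R 4.3.3; TMM scaling, filterByExpr with its minimum count of 10 and total of 15, glmQLFit and glmQLFTest, ZT12 minus ZT0), with Benjamini-Hochberg adjustment and a threshold of 0.05. Each SE was derived as the absolute log2 fold change over the square root of the F statistic. It is not an estimate given by the model. Members failing the filter were not tested. The code was checked on simulated data. A library with 0 counts allows up to 0.123 to 0.151 CPM (3 counts, counting error only). Alternatives were DESeq2 1.42.0, limma 3.58.1 on log2(FPKM + 1) and log2(FPKM + 0.1), other scalings and filters, a replicate block and each library left out; plain library sizes in the test were added after seeing the data.

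Members and lists were chosen with earlier results of these data known. Genes named are members past the threshold, up to 10 per direction with the smallest p under 0.05, the 6 with the highest mean FPKM and the highest of each kind, up to 6 that switch between libraries of a time, and of the partner list the 6 smallest p and the most abundant per role (1 of these is not reported here); others are marked where they stand. Gut and nerve marker lists were trimmed of unrelated genes by name alone.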

Additional observations from a re-analysis of the deposited data

How the results depend on the processing

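Against 1 member called in all (0 higher and 1 lower at ZT12), DESeq2 called 5 (3 higher, 2 lower), and edgeR's legacy option and limma-trend on log2(FPKM + 1) called 0 in either direction; leaving out 1 library gave 0 to 1. In the partner list DESeq2 called 1, against 0. The median log2 fold change of 0.37 ran from 0.14 to 0.52 over all alternatives. Members switching within a time numbered 5, against 10 at 0.5 CPM, 3 at 2 CPM and 3 to 5 with a library left out (3 without ZT12 library 3). Members at 1 CPM in any library numbered 44, against 49 at 0.5 CPM and 36 at 2 CPM.

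No called member reversed. Uncalled ones did: ZJQ005334 was 0.10 with plain library sizes (chosen after seeing the data), ZJQ015300 was 0.06 and 0.09 on log2(FPKM + 1) and log2(FPKM + 0.1), and ZJQ022631 was -0.14 on log2(FPKM + 0.1). With 1 library left out the log2 fold changes ran from -0.90 to 0.39 (ZJQ005334), -0.09 to 3.06 (ZJQ022616), -0.40 to 0.01 (ZJQ013743), -0.08 to 2.65 (ZJQ001925), -1.39 to 1.01 (ZJQ022631) and -0.41 to 0.43 (ZJQ015300). The causes were not tested.

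The replicate numbers do not show a pairing: deviations of same-numbered libraries correlated at -0.058, 0.007 and -0.037 across genes. With the number as a block, 1 member was called, the median was 0.36, and 13 genes in all were called, against 24. As 19.8 to 24.4 reads make 1 CPM, so absence of the rarest members is not shown at this depth.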
